A study of Sus scrofa with 8 samples.

Results

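Tendon and myotendinous junction genes are a set of 10 of the 23235 genes in the table: TNMD, MKX, SCX, COMP, THBS4, COL12A1, COL22A1, ANGPTL7, FIBIN and MYOC. They were chosen by symbol, with the difference between melatonin and control libraries already known, so their levels are described here and were not tested. The tissue was the longissimus dorsi, the long muscle of the back, of crossbred Duroc x Landrace x Yorkshire piglets weaned at 28 days. The melatonin group received 5 mg per kg body weight of the pineal hormone melatonin in 10 mL of saline by gavage each day for 23 days, and the control group received saline alone. Both groups had 6 piglets, 5 days of adaptation and the same basal diet, and 4 libraries per group were sequenced from poly(A) RNA. The labels number the replicates without saying that each is a separate animal, so p-values measure the spread between these samples.

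A muscle fibre passes its force to tendon at the myotendinous junction, where the folded fibre membrane is anchored to tendon collagen. On the tendon side, tenocytes switch on their matrix genes through the transcription factors scleraxis (SCX) and Mohawk (MKX) and carry tenomodulin (TNMD) on their surface. On the muscle side, nuclei at the fibre tip express their own genes, of which the collagen COL22A1 is the best known in mouse and human.

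Muscle fibre genes were abundant in every library: the skeletal actin ACTA1 measured 49047 to 66373 FPKM in melatonin libraries and 59375 to 74673 FPKM in controls. The muscle creatine kinase CKM measured 10937 to 13707 FPKM and 11828 to 13768 FPKM in the same groups. Melatonin replicates 1 and 3 stood apart from the other 6 libraries in connective tissue genes, so fold changes are also given without them at the end. Levels are in FPKM (fragments per kilobase of transcript, scaled to library depth), which compares genes per length, and each log2 fold change is melatonin over control with its standard error from edgeR. Over all genes, edgeR's quasi-likelihood test called 0 of 9821 at an adjusted p under 0.05 (0.0%, smallest adjusted p = 0.440), while DESeq2 called 65 (0.662%). Without adjustment, 1032 genes (10.5%) had a p under 0.05 in edgeR, of which 655 were higher (6.67%) and 377 lower (3.84%) after melatonin. In bulk tissue, more cells of a type and more RNA per cell cannot be told apart.

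All 10 genes had their 2 highest values in melatonin replicates 1 and 3, an order that 2834 of the 9821 tested genes shared (28.9%). The summed FPKM of the set was 819, 44.7, 366 and 27.8 in melatonin replicates 1 to 4, against 27.2, 23.5, 21.1 and 36.2 in control replicates 1 to 4. Of the 10 genes, 9 peaked in melatonin replicate 1 and COL22A1 peaked in melatonin replicate 3. Among the 9821 tested genes, 3012 peaked in melatonin replicate 1 and 2738 in melatonin replicate 3. Melatonin replicates 2 and 4 lay close to the controls: 4 of the 10 genes in replicate 2 and 1 in replicate 4 were above every control. Below every control were 1 gene in replicate 2 and 2 in replicate 4. Such counts for a single library were not made over all tested genes, so no background share stands beside them. The groups did not overlap for 1 gene, MYOC, and every melatonin library lay above every control in 111 of the 9821 tested genes (1.13%). No member had every melatonin library below every control, which held for 105 tested genes (1.07%).

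**Figure D1:**
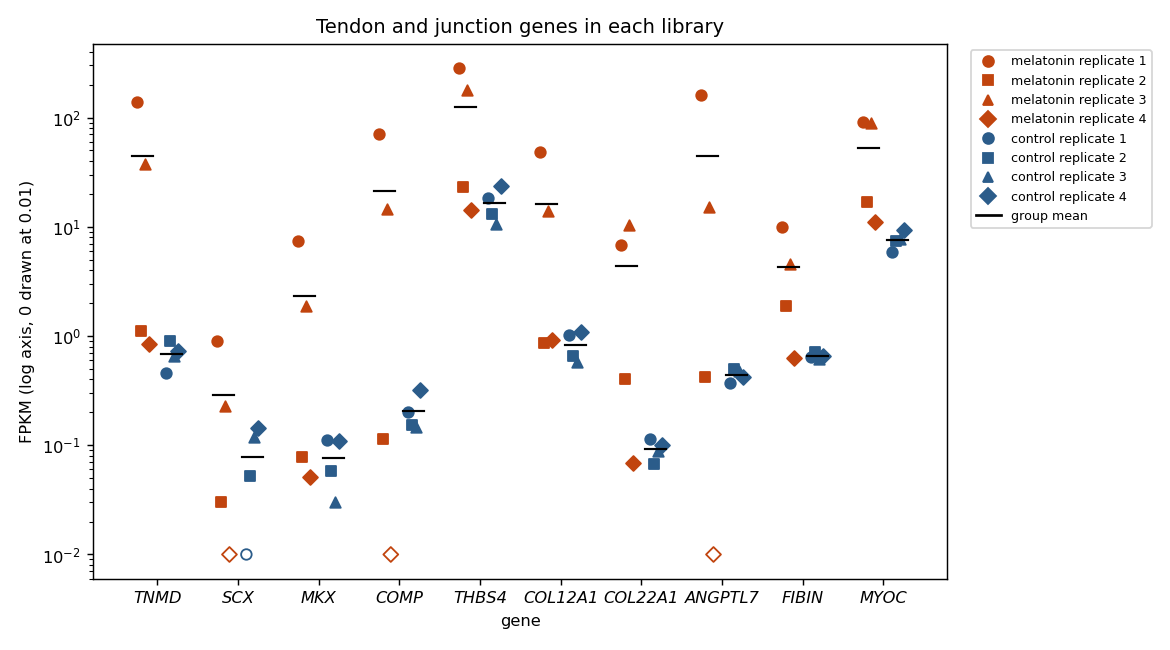
FPKM of the 10 tendon and junction genes in each library on a log axis, with melatonin libraries left of controls, 1 symbol per replicate number, bars at the group means and open symbols for values listed at 0. Melatonin replicates 1 and 3 lie above all other libraries for every gene, for example at 139 and 37.7 FPKM for TNMD, where the controls reach 0.903.

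Of the 10 genes, 9 passed the filter of a mean of 1 FPKM over the 8 libraries. Only THBS4 and MYOC also had a control mean of at least 1 FPKM, so the other 7 passed through the level in the melatonin group. SCX, at a mean of 0.184 FPKM, did not pass, and its fold change comes from a fit without the filter.

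Among the tenocyte surface protein and regulators, TNMD measured 139, 1.12, 37.7 and 0.847 FPKM in melatonin replicates 1 to 4, against 0.463, 0.903, 0.657 and 0.736 FPKM in control replicates 1 to 4. Replicate 1 was at 202 times the control mean and replicate 3 at 54.7 times, whereas replicate 4 lay inside the range of the controls and replicate 2 just above it. The log2 fold change of TNMD (ENSSSCG00000012480, chromosome X, 82269239 to 82292246 in Sscrofa11.1) was 5.70 ± 1.44 (SE, n = 4 per group). MKX, the homeobox factor of tendon, measured 7.36, 0.0774, 1.89 and 0.0510 FPKM after melatonin and 0.112, 0.0577, 0.0304 and 0.109 FPKM in controls. The controls rest on 7 to 24 counts each, and melatonin replicates 2 and 4, with 18 and 12 counts, lay within that range. Its log2 fold change was 4.61 ± 1.34 (chromosome 10, 39096782 to 39172198).

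SCX, the basic helix-loop-helix factor that marks tendon progenitors, was the weakest of the set. It had 90, 4, 24 and 0 counts in melatonin replicates 1 to 4, against 0, 6, 12 and 16 counts in control replicates 1 to 4. In FPKM these were 0.896, 0.0302, 0.228 and 0 after melatonin and 0, 0.0528, 0.119 and 0.142 in controls. Replicates 1 and 3 were again the highest, but at 11.4 and 2.90 times the control mean they stood out less than for MKX, and the log2 fold change was 1.54 ± 1.33. SCX lies on chromosome 4, 500526 to 503193, where it overlaps BOP1, a ribosome biogenesis gene on the opposite strand with a mean of 4.27 FPKM. BOP1 measured 5.12, 3.93, 4.51 and 3.73 FPKM after melatonin and 3.77, 3.65, 4.16 and 5.26 FPKM in controls. Since the use of strand in counting is not given, the low SCX counts cannot be told apart from reads of BOP1.

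COMP and THBS4 are thrombospondins, secreted pentamers that bind collagen and are abundant in tendon, COMP also in cartilage. COMP measured 70.6, 0.114, 14.4 and 0 FPKM in melatonin replicates 1 to 4, against 0.204, 0.155, 0.148 and 0.323 FPKM in controls. Melatonin replicate 1 was at 341 times the control mean, replicate 3 at 69.6 times, and replicates 2 and 4 lay below every control. The log2 fold change was 6.39 ± 1.92 (chromosome 2, 59061426 to 59069564), and COMP overlaps CRTC1 (mean 1.41 FPKM) on the opposite strand. The 0 of replicate 4 stands beside 22 or more counts in every other library. The table held 6 genes at 0 in that library alone with 20 or more counts in every other, and 1 to 11 such genes in each library, so the value is given as listed at 0.

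THBS4 was the most abundant of the 10 genes, with 283, 23.0, 179 and 14.3 FPKM after melatonin and 18.4, 13.1, 10.6 and 23.4 FPKM in controls. It was well above 1 FPKM in controls, and melatonin replicates 2 and 4 lay within their range. Its log2 fold change was 2.69 ± 0.77 (ENSSSCG00000014117, chromosome 2, 88731122 to 88780751). The ratio of COMP to THBS4 was 0.250 in melatonin replicate 1 and 0.0808 in replicate 3, against 0.0110 to 0.0140 in the controls. The relatives of this pair were read from the same table: THBS1, an activator of latent TGF-beta, measured 69.7, 2.02, 19.4 and 1.29 FPKM after melatonin and 1.29 to 2.12 FPKM in controls (log2 fold change 3.50 ± 1.03, edgeR adjusted p = 0.440). THBS3 measured 7.59, 0.735, 2.03 and 0.643 FPKM after melatonin and 0.814 to 1.22 FPKM in controls, so melatonin replicates 2 and 4 lay below every control. For THBS2, melatonin replicate 4, at 32.9 FPKM, lay close to replicate 1, at 39.7 FPKM. None of the 3 passed the adjusted threshold, and THBS1 alone had an unadjusted p under 0.05.

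The collagens of the set belong to the FACIT class, collagens that decorate the surface of collagen fibrils. COL12A1, made by fibroblasts of tendon and its sheaths, measured 48.6, 0.859, 13.9 and 0.926 FPKM after melatonin, against 1.01, 0.663, 0.580 and 1.09 FPKM in controls. Replicates 1 and 3 were at 58.2 and 16.7 times the control mean and the other melatonin libraries lay within the control range (log2 fold change 4.01 ± 1.11, chromosome 1, 90744612 to 90875118). COL22A1, the collagen of the muscle side of the junction, measured 6.79, 0.405, 10.3 and 0.0687 FPKM after melatonin, against 0.115, 0.0671, 0.0882 and 0.0998 FPKM in controls. It was the single gene with its peak in melatonin replicate 3, at 111 times the control mean against 73.5 times in replicate 1. It was also above every control in melatonin replicate 2, at 4.39 times their mean, on 157 counts against 26 to 41. The log2 fold change was 5.28 ± 1.23 (ENSSSCG00000005938, chromosome 4, 4069076 to 4313195).

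Of 8 other FACIT genes, 6 were matched and 3 tested, and 1 of these had an unadjusted p under 0.05. COL14A1, a collagen of dense connective tissue, measured 38.9, 5.67, 15.8 and 5.10 FPKM after melatonin and 2.67 to 8.46 FPKM in controls (log2 fold change 1.39 ± 0.55, edgeR adjusted p = 0.453). COL16A1 measured 28.4, 2.45, 10.2 and 1.94 FPKM after melatonin and 2.61 to 4.08 FPKM in controls (1.45 ± 0.66, edgeR adjusted p = 0.476). COL21A1 averaged 2.48 ± 0.859 FPKM after melatonin and 2.27 ± 0.278 FPKM in controls (SD, n = 4), with a log2 fold change of 0.04. None passed the adjusted threshold.

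Of the secreted glycoproteins, ANGPTL7, an angiopoietin-like protein known from the cornea and the outflow tissue of the eye, measured 161, 0.419, 15.3 and 0 FPKM in melatonin replicates 1 to 4. The controls had 0.373, 0.495, 0.482 and 0.426 FPKM, with 52 to 73 counts each. Melatonin replicate 1 was at 363 times the control mean, the largest such multiple among the 10 genes, and replicate 3 was at 34.4 times. The 0 of replicate 4 is, as for COMP, the value of a gene counted in every other library. The log2 fold change was 6.34 ± 1.97 (chromosome 6, 71350033 to 71356662). ANGPTL7 overlaps MTOR on the opposite strand. MTOR measured 6.20, 5.61, 6.04 and 5.94 FPKM after melatonin and 5.95, 5.02, 5.43 and 8.57 FPKM in controls.

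FIBIN, a secreted factor first described in fin bud development of fish, measured 9.90, 1.89, 4.56 and 0.626 FPKM after melatonin. Its controls were the tightest of the set, at 0.648, 0.708, 0.617 and 0.654 FPKM (coefficient of variation 5.76%). Melatonin replicates 1, 2 and 3 were above them, replicate 2 at 2.87 times their mean, and replicate 4 was not (log2 fold change 2.46 ± 0.61). MYOC encodes myocilin, a secreted olfactomedin protein that skeletal muscle also makes. It measured 91.7, 16.8, 89.2 and 10.95 FPKM after melatonin, against 5.87, 7.38, 7.78 and 9.25 FPKM in controls. All 4 melatonin libraries lay above all 4 controls, with replicates 1 and 3 nearly equal, and the log2 fold change was 2.56 ± 0.56 (chromosome 9, 114087378 to 114098745).

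The relatives of ANGPTL7 and MYOC differed among themselves. ANGPTL5 measured 14.1, 0.118, 4.70 and 0 FPKM after melatonin and 0 to 0.265 FPKM in controls (log2 fold change 5.53 ± 1.84, edgeR adjusted p = 0.440). ANGPTL4, a lipase inhibitor induced by fasting, measured 14.2 ± 3.96 and 9.66 ± 3.10 FPKM (SD, n = 4) in melatonin and control libraries, and ANGPTL2 measured 16.8 ± 12.6 and 16.3 ± 5.05 FPKM in the same order. ANGPTL1 averaged 3.83 FPKM after melatonin and 2.72 FPKM in controls. Of the 4 tested angiopoietin-like genes, 1 had an unadjusted p under 0.05. This was ANGPTL5, which passed the filter through the melatonin libraries, and of the 3 with a control mean of at least 1 FPKM there were 0. There were also 0 among the 4 tested olfactomedin genes (OLFM1, OLFML2A, OLFML2B and OLFML3, log2 fold changes -0.79 to 0.55). None of these 8 passed the adjusted threshold.

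**Figure D2:**
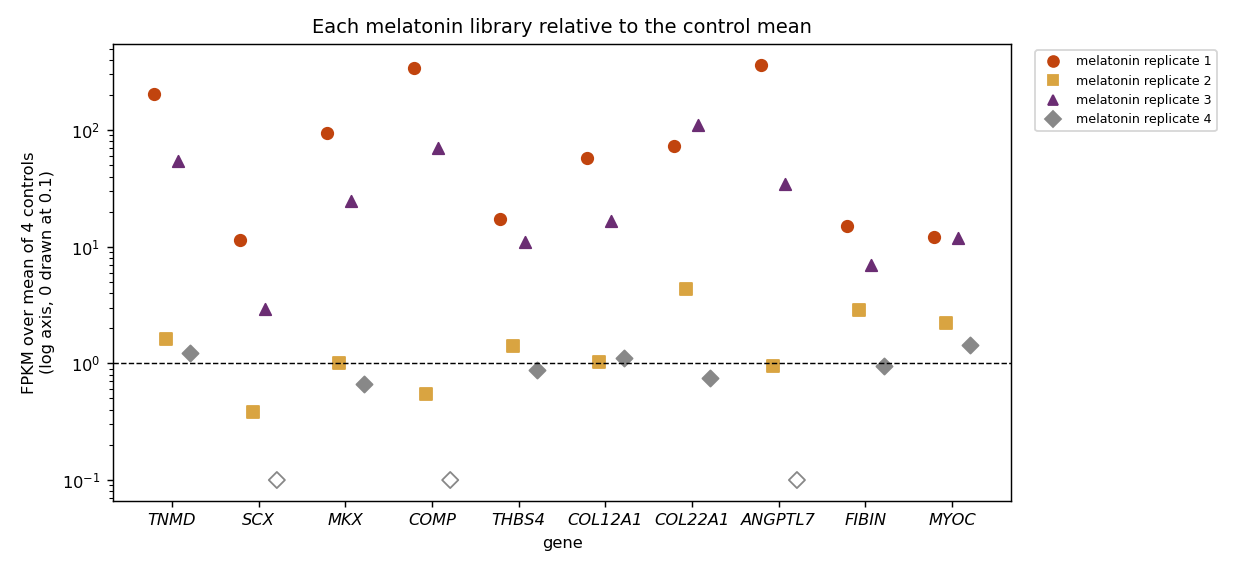
FPKM of each gene in each melatonin library divided by the mean of the 4 controls, on a log axis, with a dashed line at the control mean and open symbols for values listed at 0. Multiples in melatonin replicate 1 run from 11.4 for SCX to 363 for ANGPTL7, while replicates 2 and 4 lie near 1 except for COL22A1, FIBIN and MYOC in replicate 2 and the genes with few or 0 counts.

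The makeup of the set differed between the libraries with high and with low levels. THBS4 and MYOC together took 45.7% of the summed FPKM of the 10 genes in melatonin replicate 1 and 73.1% in replicate 3. They took 89.0% and 90.9% in melatonin replicates 2 and 4, against 86.8 to 90.1% in controls. Shares of TNMD and ANGPTL7 were larger in the first pair of libraries: TNMD took 17.0% in melatonin replicate 1 and 10.3% in replicate 3, against 1.70 to 3.84% in controls. ANGPTL7 took 19.7% and 4.17% in those melatonin libraries, against 1.17 to 2.28% in controls.

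Melatonin replicates 1 and 3 also differed from each other by gene. The level in replicate 1 over that in replicate 3 was 10.6 for ANGPTL7 (95% interval 10.1 to 11.04) and 4.89 for COMP. It was 3.93 for SCX (2.48 to 6.44), 3.90 for MKX, 3.70 for TNMD (3.54 to 3.86) and 3.49 for COL12A1. The general collagens COL1A1 and COL1A2, at 3457 and 3550 FPKM in replicate 1, had ratios of 3.79 and 3.91, which lie among those of SCX, MKX, TNMD and COL12A1. Lower ratios were found for FIBIN (2.17), THBS4 (1.58) and MYOC (1.03, 1.00 to 1.06), and COL22A1 alone was below 1 (0.660, 0.626 to 0.695). The intervals cover counting error in these libraries and not differences between animals. Over all tested genes the median ratio was 0.995.

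**Figure D3:**
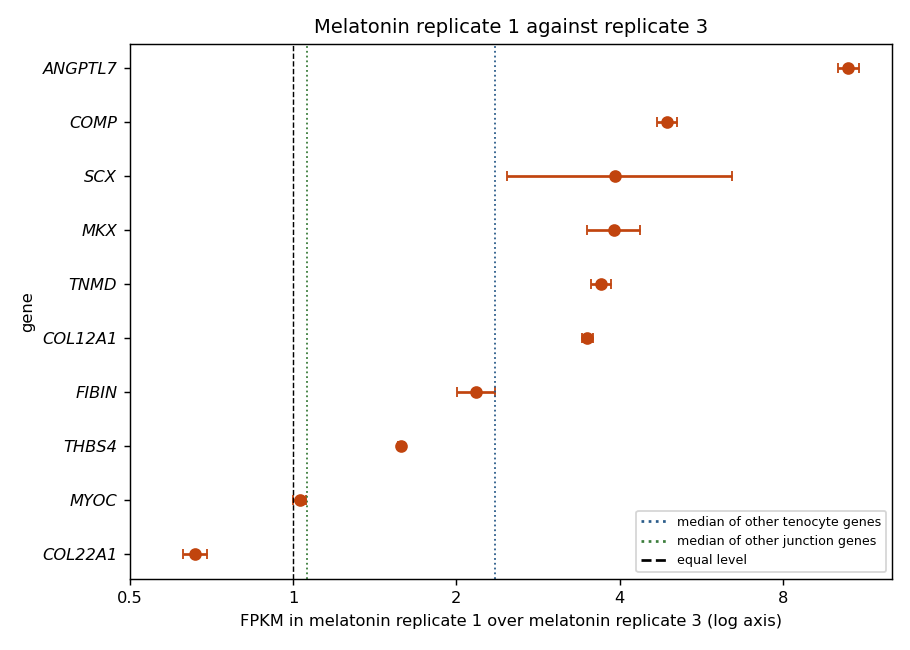
FPKM in melatonin replicate 1 divided by that in melatonin replicate 3 for each gene on a log axis, with 95% counting intervals. Dotted lines mark the medians of other tenocyte genes (2.36) and of other genes of the muscle side of the junction (1.06), and only COL22A1, at 0.660, lies left of the dashed line at equal level.

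Set against COL1A1 in the same library, TNMD stood at 4.03 and 4.13 FPKM per 100 FPKM of COL1A1 in melatonin replicates 1 and 3, and at 0.280 to 0.945 in controls. COL12A1 stood at 1.41 and 1.53 in these melatonin libraries and at 0.543 to 0.828 in controls. Both genes were thus higher against COL1A1 than in any control, by a similar amount in both melatonin libraries. COL22A1 stood at 0.196 and 1.13, with 0.0694 to 0.0825 in controls, and also at 0.370 in melatonin replicate 2. MKX, COMP and ANGPTL7 were also above every control in both, whereas SCX and FIBIN were so in neither. THBS4 was below every control in melatonin replicate 1 (8.17) and above every control in replicates 2 and 3 (21.0 and 19.6), with 9.93 to 17.9 in controls. MYOC stood at 2.65, 15.4 and 9.77 in melatonin replicates 1, 2 and 3, with 3.55 to 7.72 in controls. In replicate 1, COL1A1 thus exceeded its control level by a larger multiple than MYOC did.

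The 8 other genes with the profile nearest to the mean of the members past the filter were KERA, AEBP1, COL2A1, THBS1, CPXM2, CHAD, COL11A1 and FAM180B. Likeness was the mean absolute difference over the 8 libraries of log2(FPKM + 1), each gene set to 0 at its control mean. It ran from 0.14 for KERA to 0.27 for FAM180B, with a median of 1.04 over all other tested genes. Keratocan (KERA), a small leucine-rich proteoglycan of cornea and tendon, measured 43.1, 1.33, 15.4 and 0.965 FPKM after melatonin and 0.874 to 1.74 FPKM in controls. AEBP1, a collagen-binding secreted protein, measured 116, 4.50, 41.7 and 4.41 FPKM after melatonin and 3.66 to 5.93 FPKM in controls. The carboxypeptidase-like CPXM2 measured 73.3, 2.67, 20.5 and 1.34 FPKM after melatonin and 1.48 to 2.38 FPKM in controls.

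Genes of tendon outside the set were read from 3 lists. Of 30 other tenocyte genes, 29 were matched and 27 tested, of which 14 were higher and 0 lower at an unadjusted p under 0.05, with a median log2 fold change of 0.85 against 0.00 over all tested genes. None passed the adjusted threshold. Of the 27, 24 had a control mean of at least 1 FPKM, and 11 of the 14 were among them. Fibromodulin (FMOD), which steers fibril assembly, measured 453, 7.30, 147 and 5.67 FPKM after melatonin and 4.29 to 6.89 FPKM in controls (4.52 ± 1.19, edgeR adjusted p = 0.440). CILP2, a matrix protein of tendon and cartilage, measured 63.3, 0.462, 13.7 and 0 FPKM after melatonin and 0.138 to 0.235 FPKM in controls. The fibril collagen COL11A1 measured 64.1, 1.00, 17.7 and 0.550 FPKM after melatonin and 0.307 to 1.11 FPKM in controls. PCOLCE2, an enhancer of procollagen processing, was the single gene of the list whose groups did not overlap, at 9.59, 2.18, 4.60 and 2.28 FPKM after melatonin and 0.980 to 2.05 FPKM in controls (1.60 ± 0.41). COL3A1, the collagen of loose connective tissue, measured 403 ± 173 FPKM after melatonin and 281 ± 109 FPKM in controls (SD, n = 4), a log2 fold change of 0.41 ± 0.29. Without melatonin replicate 1, 8 of the 27 genes were higher at that threshold, and without melatonin replicates 1 and 3, 1 was, with a median of 0.05. Over all tested genes the share higher was 6.67% with all libraries, 5.27% without melatonin replicate 1 and 2.81% without melatonin replicates 1 and 3.

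Genes of the muscle side of the junction were read in the same way. Of 30 in the list, 29 were matched and 21 tested, of which 0 were higher and 2 lower without adjustment (p under 0.05), with a median of -0.10. With 1 library left out at a time, 0 to 3 were higher and 0 to 2 lower, with 3 higher without melatonin replicate 2. The median ran from -0.21 without melatonin replicate 4 to 0.07 without control replicate 2. Over all 9821 tested genes, 376 to 1092 were higher and 192 to 790 lower in these fits, with 590 higher without melatonin replicate 2. None of the 21 passed the adjusted threshold. ANKRD1, a stretch-responsive nuclear protein, measured 203, 13.5, 117 and 31.9 FPKM after melatonin and 18.2 to 44.3 FPKM in controls (1.30 ± 0.65, edgeR adjusted p = 0.511). The integrin ITGB1, which anchors the fibre to laminin, measured 32.2, 18.5, 30.7 and 19.6 FPKM after melatonin and 16.1 to 22.4 FPKM in controls. Both had their highest values in melatonin replicates 1 and 3. The focal adhesion adaptor PXN measured 19.9 ± 1.44 FPKM after melatonin and 24.3 ± 2.29 FPKM in controls (SD, n = 4), with every melatonin library below every control (-0.35 ± 0.16, edgeR adjusted p = 0.473). FREM2, a basement membrane protein, averaged 1.28 FPKM after melatonin and 1.82 FPKM in controls (-0.58 ± 0.25).

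Of 40 regulators upstream of tendon genes, 39 were matched and 27 tested, of which 6 were higher and 0 lower by the same count, with a median of 0.29. None passed the adjusted threshold. Of the 27, 26 had a control mean of at least 1 FPKM, and 5 of the 6 were among them, without FGF2. CCN2, a matricellular target of TGF-beta, measured 119, 2.27, 18.7 and 2.83 FPKM after melatonin and 2.87 to 5.70 FPKM in controls (2.81 ± 1.04, edgeR adjusted p = 0.451). The growth factor FGF2 measured 1.73, 0.989, 3.15 and 0.505 FPKM after melatonin and 0.486 to 0.581 FPKM in controls. Like COL22A1, it peaked in melatonin replicate 3, where 8 of the 27 tested regulators did. The TGF-beta receptors TGFBR1 and TGFBR3 averaged 3.59 and 4.05 FPKM after melatonin, against 2.43 and 2.04 FPKM in controls. The 6 became 3 without melatonin replicate 1, melatonin replicate 3 or control replicate 2. The share of all tested genes that was higher in these fits was 5.27, 3.83 and 4.49%. Without melatonin replicates 1 and 3, 0 regulators were higher and 2 lower, against 2.81% higher and 2.02% lower over all tested genes. Over the 3 lists together 22 of 75 tested genes had an unadjusted p under 0.05, 20 higher and 2 lower. Of the 75, 71 had a control mean of at least 1 FPKM, and 16 of the 20 were among them. The 22 became 3 without melatonin replicates 1 and 3 and 11 without melatonin replicate 1 alone. Of all tested genes, 2.81% were higher and 2.02% lower in the first of these fits, and 5.27% and 3.21% in the second. At that threshold limma on log2(FPKM + 1) gave 6, with 3.78% of all tested genes higher and 1.88% lower.

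Marker lists of other cell types were summed in each library. Cartilage genes summed to 172, 2.00, 49.0 and 0.668 FPKM in melatonin replicates 1 to 4 and to 0.577 to 1.51 FPKM in controls. Of 12, 10 were matched and 3 tested, and these were high in replicates 1 and 3: COL11A2 (106 and 32.9 FPKM), CHAD (33.8 and 8.93 FPKM) and COL2A1 (29.5 and 6.76 FPKM). None of the 3 had a control mean of at least 1 FPKM, so all passed the filter through the level in the melatonin group. The defining cartilage proteoglycan ACAN reached 1.92 FPKM in melatonin replicate 1 and at most 0.120 FPKM elsewhere, and COL10A1 and MATN3 were at 0 in all but 1 library each. Fibroblast markers summed to 435, 174, 291 and 136 FPKM after melatonin and to 109 to 183 FPKM in controls. Of these 12 genes, an unadjusted p under 0.05 was found for 3 higher and 1 lower, and 0 passed the adjusted threshold. The 3 became 1 without melatonin replicate 1 or control replicate 3, 6 without melatonin replicate 2 and 8 without melatonin replicate 4. Over all 9821 tested genes, 655 were higher with all libraries and 518, 511, 590 and 1092 in these fits, in the same order. The rise without melatonin replicate 4 was thus shared by the whole table. PDGFRA, the defining receptor of interstitial fibroblasts, was among the 3 fibroblast markers higher with all libraries. It measured 6.21, 2.83, 3.62 and 1.66 FPKM after melatonin and 1.51 to 2.24 FPKM in controls. LY6E was the lower gene (log2 fold change -1.12 ± 0.40). CD34 (-0.16 ± 0.22) and DPP4 (-0.12 ± 0.29) also had negative fold changes, and the other 9 had positive ones. Adipocyte markers, which matter here since fat cells also make TNMD, summed to 279, 110, 247 and 34.3 FPKM after melatonin and to 71.7, 45.6, 170 and 63.1 FPKM in control replicates 1 to 4. The adipokine ADIPOQ measured 77.6, 21.7, 50.7 and 1.03 FPKM in melatonin replicates 1 to 4, against 0.990, 1.57, 30.4 and 2.27 FPKM in control replicates 1 to 4. Its 2 highest values were in melatonin replicates 1 and 3, as for TNMD, while melatonin replicate 2 and control replicate 3, where TNMD was at 1.12 and 0.657 FPKM, came next.

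Other cell types and muscle fibres were read in the same way. Endothelial markers summed to 67.2, 61.0, 85.1 and 59.8 FPKM after melatonin and to 54.0 to 84.4 FPKM in controls. Mural markers summed to 86.7 to 142 FPKM after melatonin and to 87.0 to 141 FPKM in controls. Macrophage markers summed to 56.8, 50.2, 74.1 and 17.6 FPKM after melatonin and to 20.4 to 51.2 FPKM in controls. Satellite cell markers summed to 17.8, 12.0, 19.6 and 10.6 FPKM after melatonin and to 10.96 to 14.04 FPKM in controls, and Schwann cell markers to 20.7 to 38.3 FPKM and 19.9 to 34.8 FPKM. VCAM1 was the largest part of the satellite cell sum, with 11.4 and 13.6 FPKM in melatonin replicates 1 and 3. MYF5 measured 1.26 to 3.46 FPKM after melatonin and 0.416 to 1.08 FPKM in controls. MYOD1 went the other way, at 0.988 to 3.03 FPKM after melatonin and 3.66 to 5.75 FPKM in controls. PAX7 measured 0.605 to 1.16 FPKM after melatonin and 0.769 to 1.27 FPKM in controls. Muscle fibre genes, of which 9 of 12 were matched, summed to 93002, 115246, 90078 and 114403 FPKM after melatonin and to 107250 to 124512 FPKM in controls. This sum, of which ACTA1 made 54226 FPKM in melatonin replicate 1, was lowest in melatonin replicates 1 and 3. ACTA1, CKM, MYLPF, TNNT3 and TNNC2 were also lowest in these libraries, whereas MYH1, MYH4, MYH7 and DES were not lowest in both. MYH1 measured 5696 FPKM in melatonin replicate 1, above every control (2208 to 4758 FPKM). The part of these cell types in the levels of the 10 genes was not tested.

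**Figure D4:**
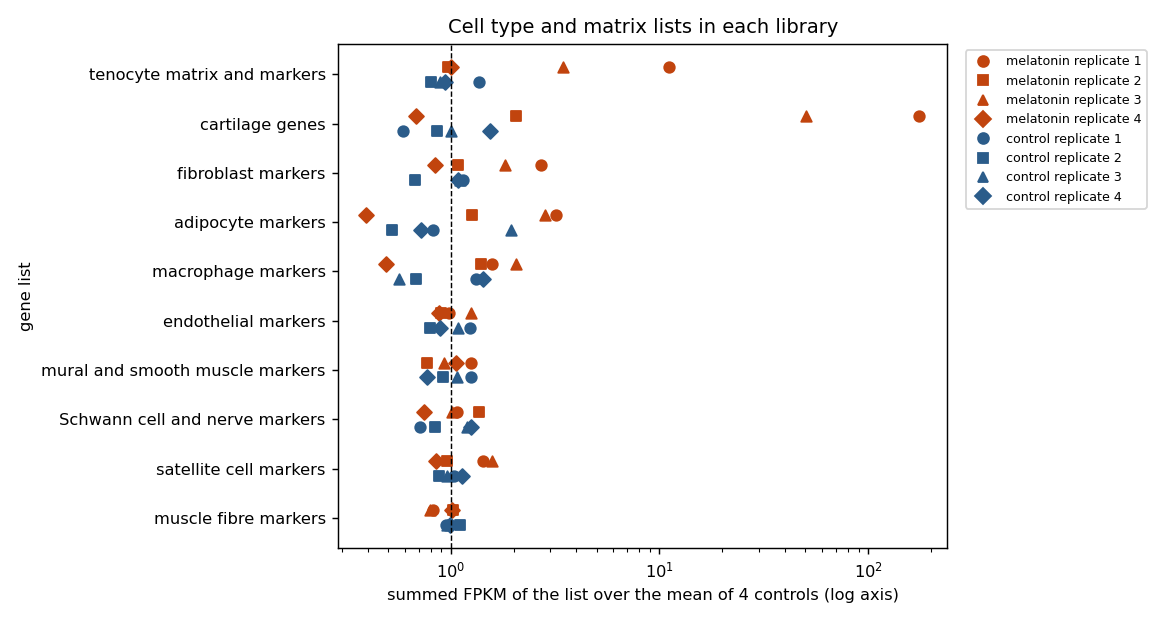
Summed FPKM of each gene list in each library divided by the mean of the 4 controls, on a log axis, with melatonin libraries above controls in each row. The sums of the tenocyte, cartilage, fibroblast, adipocyte, macrophage and satellite cell lists are highest in melatonin replicates 1 and 3. The tenocyte list holds general collagens, with COL1A1 and COL1A2 at 3457 and 3550 of its 10034 FPKM in melatonin replicate 1. The sum of muscle fibre genes is lowest in melatonin replicates 1 and 3, at 93002 and 90078 FPKM.

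Without melatonin replicate 1 alone, the log2 fold change was 5.00 for COL22A1, 4.26 for COMP, 3.96 for TNMD, 3.27 for ANGPTL7, 2.84 for MKX and 2.43 for COL12A1. It was 2.18 for MYOC, 1.94 for THBS4 and 1.70 for FIBIN, so COL22A1 and MYOC moved least. Without melatonin replicates 1 and 3, the remaining melatonin libraries were compared with the 4 controls in the same fit. The log2 fold changes were then 1.42 ± 0.58 for COL22A1, 1.01 ± 0.40 for FIBIN and 0.98 ± 0.22 for MYOC. They were 0.58 ± 0.40 for TNMD, 0.30 ± 0.30 for THBS4, 0.22 ± 0.26 for COL12A1 and -0.14 ± 0.56 for MKX. COMP (-1.75 ± 0.96) and ANGPTL7 (-1.02 ± 1.04) turned negative, with both listed at 0 in melatonin replicate 4. COMP was also below every control in melatonin replicate 2, at 0.114 FPKM, where ANGPTL7, at 0.419 FPKM, was within the control range. For COL22A1 and FIBIN the difference came from melatonin replicate 2, since replicate 4, at 0.0687 and 0.626 FPKM, was within the control range.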

How the data were processed

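Poly(A) RNA of longissimus dorsi was compared between 4 melatonin and 4 control libraries. The deposited table gives, per the file headers, a raw count and a level in FPKM for 23235 genes in each library. FPKM is by definition scaled to transcript length and library depth, and the deposited counts are whole numbers. FastQC, StringTie, DESeq2 and the build Sscrofa11.1 are named in the submitters' processing notes, with no role given. Not given in the sources used here are the aligner, the annotation release and the use of strand in counting. All 10 genes were found by their symbols in the table. No pair of libraries was a duplicate (smallest chi-square per degree of freedom 53.2).

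In R 4.3.3, edgeR 4.0.16 fitted the counts by its legacy quasi-likelihood method after TMM scaling, over the 9821 genes with a mean of at least 1 FPKM, with Benjamini-Hochberg adjustment over all of them. limma 3.58.1 and DESeq2 1.42.0 gave alternatives. The fit was tested on simulated counts. Other values were computed in Python 3.11.15 with pandas 2.3.3 and SciPy 1.17.1. Standard errors were derived from each log2 fold change and its F statistic. Total counts ran from 53471667 to 60629098, and intervals of ratios between libraries are 95% exact binomial (Clopper-Pearson) intervals that cover counting error only.

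The members and the gene lists were chosen with earlier results of these data known. Named from each list of other tendon, junction and family genes are up to 4 tested genes with the smallest unadjusted p, beside the 8 nearest profiles and a fixed set of collagens and muscle genes. Other genes named from the lists were chosen after their values were seen.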

Additional observations from a re-analysis of the deposited data

Results flagged for a closer look

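In a group of 4, a library was picked out where its gap to the nearest of the others exceeded 0.829 of the group's range, a limit that chance passes in about 1 in 20 groups. Of 104 groups checked over the 10 genes, the named relatives and the list sums, 7 were picked out. Among the 10 tendon and junction genes this was ANGPTL7 alone, at 161 FPKM in melatonin replicate 1, against 15.3, 0.419 and 0 FPKM in melatonin replicates 3, 2 and 4. CCN2 (119 FPKM), COL21A1 (3.76 FPKM) and ANGPTL1 (8.12 FPKM) were also far above the other melatonin libraries in replicate 1. OLFM1 was low in melatonin replicate 2 (0.562 FPKM). Among controls, ANGPTL4 was high in replicate 4 (14.3 FPKM), and the summed fibroblast markers were low in replicate 2 (109 FPKM).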

How the results depend on the processing

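Over all genes edgeR called 0, DESeq2 called 65, and leaving out 1 library at a time gave 0 to 15, with 15 without melatonin replicate 4. The count of other tendon and junction genes at an unadjusted p under 0.05 was 22 of 75. It ranged from 11 to 31 when 1 library was left out, lowest without melatonin replicate 1 and highest without melatonin replicate 4. Over all 9821 tested genes, 518 were higher and 315 lower in the first of these fits. In the second, 1092 were higher and 790 lower, against 655 and 377 with all libraries. The upper end of the range thus came where counts rose over the whole table. The count of other tendon and junction genes was 14 at a mean FPKM of at least 5, where 49 were tested. At that filter 6.18% of all tested genes were higher and 3.83% lower. The count was 6 with limma at either pseudocount (1 or 0.1) and 3 without melatonin replicates 1 and 3 together. The cause of the lower limma count was not tested. With the replicate number as a block the counts were 0 and 17, and 6.21% of all tested genes were higher at the unadjusted threshold. Deviations of same-numbered libraries correlated at 0.18, 0.09, 0.14 and -0.05, so the numbers were not taken to pair the samples. Log2 fold changes of the 9 tested members kept their sign with RLE size factors, without the filter, with limma, with the block and in each single omission. Without melatonin replicates 1 and 3, MKX (-0.14), COMP (-1.75) and ANGPTL7 (-1.02) turned negative. Over single omissions they ran from 3.27 to 6.76 for ANGPTL7, 3.96 to 6.11 for TNMD and 4.45 to 5.69 for COL22A1. With the block these were lower, at 2.52, 3.50 and 3.88, and with limma on log2(FPKM + 1), which understates low genes, at 2.44, 2.84 and 1.63. MKX was at 2.97 and 1.09 in these fits, and COMP at 3.35 and 2.30. Depth limits SCX most, with 0 to 16 counts in controls.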

Other observations

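Other genes of the muscle side of the junction that were under the filter were read after the levels of COL22A1 were seen. COL13A1, a transmembrane collagen of muscle synapses, measured 0.824, 0.188, 2.58 and 0.116 FPKM in melatonin replicates 1 to 4, against 0, 0.140, 0 and 0 FPKM in control replicates 1 to 4. TIGD4, a marker of junctional nuclei in mouse, measured 1.39, 0.384, 1.85 and 0.0921 FPKM after melatonin and 0.238 to 0.411 FPKM in controls. Like COL22A1, both were highest in melatonin replicate 3, where 2738 of the 9821 tested genes also peaked. NAV3, another gene of these nuclei in mouse, measured 0.805 to 0.996 FPKM after melatonin and 0.700 to 1.35 FPKM in controls. The remaining genes of the list under the filter did not peak in melatonin replicate 3. SLC24A2, MAML2, COL24A1 and PIEZO2 peaked in melatonin replicate 1, at 0.215, 0.938, 0.614 and 0.825 FPKM. FREM1 peaked in melatonin replicate 2, at 0.611 FPKM. Of the 21 tested genes of the list, 6 peaked in melatonin replicate 1 and 2 in melatonin replicate 3. The repeat protein XIRP1, which passed the filter, measured 161, 32.3, 75.0 and 23.7 FPKM after melatonin and 17.8 to 53.4 FPKM in controls. Its log2 fold change was 0.69 ± 0.52 (edgeR unadjusted p = 0.216).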
